A study of Drosophila melanogaster with 2 samples.

Results

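The genes described here are the protein-coding genes of chromosome 4 of Drosophila melanogaster in the Ensembl annotation of dm6, without RpS3A, eIF4G1 and ND-49. They are 77 of the 80 protein-coding genes of that chromosome and of 13945 on the 6 chromosome arms, and the other 5 arms, called the large arms here, hold 13865. They were chosen by position in the genome and not by a measured value, though with earlier results of these data known. Binding was measured by chromatin immunoprecipitation and sequencing (ChIP-seq) with an antibody against GFP. All animals came from 1 transgenic line in which mod(mdg4) carries GFP at its C-terminus, so forms of mod(mdg4) without the tag were not measured. They were wandering larvae of the third instar, taken whole, with males and females pooled, and their age is given as unknown. The chromatin was sheared by sonication to 200 to 800 bp. There is 1 group with 2 biological replicates, numbered 3 and 4, and no other genotype, stage or treatment. Whole larvae mix all tissues, so a strong peak in few cells and a weaker one in many cannot be told apart.

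Chromosome 4, the dot chromosome, is the smallest chromosome of the fly. It is largely packaged as heterochromatin with the protein HP1a, is rich in transposon remnants such as INE-1 and 1360, and its genes are nevertheless transcribed and are coated by POF, a protein found mainly on this chromosome. mod(mdg4) is a BTB-domain protein that is known as a partner of the zinc-finger protein su(Hw) at insulators, sites that can separate enhancers from promoters. Other DNA-binding proteins of insulators and housekeeping promoters are CTCF, BEAF-32 and the factor that reads the DNA replication-related element (DRE).

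A peak is described by its summit, the base at which the authors' peak caller placed its maximum, and by its signal, the caller's enrichment over a control library. The thresholded list holds the peaks past the optimal threshold of the authors' irreproducible discovery rate (IDR) procedure, derived from both replicates, 6294 in all. Of these, 67 lay on chromosome 4, 6206 on the large arms and 21 on the mitochondrial genome. A peak in this list need not be matched in each replicate. On the large arms, 98.8% overlapped a peak in both full replicate lists. The pooled list and the 2 replicate lists hold 29999 peaks each and include weak ones. The pooled list is labelled as peaks and background, so an entry low in it need not be a bound site. A place in a list is the rank by signal, with 1 the strongest. For counts in a single replicate, its 6294 strongest peaks were used, as many as the thresholded list holds. The number of reads is unknown, and each list has its own signal scale, so the replicates are compared by place.

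Sequences are shown for 2 reasons, the strength of the summit and the motif matches it holds. They are read from the RefSeq Release 6 genome, the assembly of dm6, on the plus strand, up to 100 bases to each side of the summit, and they stop where an annotated untranslated region begins. Capitals mark matches on either strand to 4 motifs that occur in them, namely the su(Hw) motif, its core TGCATA, the DRE motif TATCGATA and the BEAF-32 element CGATA. Every su(Hw) match contains the core, and every DRE match contains the BEAF-32 element on both strands. A match is a description of letters and not evidence of a bound site. The first 5 belong to summits among the 10 strongest of chromosome 4. The last 4 are weaker summits, of which 3 hold a su(Hw) match and PMCA is the strongest with a DRE match outside these 10.

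dati to lgs, chr4:415548-415748: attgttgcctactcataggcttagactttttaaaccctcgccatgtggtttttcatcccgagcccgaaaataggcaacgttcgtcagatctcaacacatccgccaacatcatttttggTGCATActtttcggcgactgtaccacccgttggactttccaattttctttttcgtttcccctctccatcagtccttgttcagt
Asator to zfh2, chr4:490227-490427: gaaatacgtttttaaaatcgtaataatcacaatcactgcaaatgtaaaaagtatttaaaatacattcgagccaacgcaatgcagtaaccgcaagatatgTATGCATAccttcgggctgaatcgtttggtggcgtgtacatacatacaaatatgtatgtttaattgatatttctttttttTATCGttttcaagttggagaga
Actbeta, chr4:1084797-1084960: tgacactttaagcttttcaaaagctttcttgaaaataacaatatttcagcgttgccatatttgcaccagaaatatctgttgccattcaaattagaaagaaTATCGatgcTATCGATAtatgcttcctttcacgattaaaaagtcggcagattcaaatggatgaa
ey, chr4:697580-697688: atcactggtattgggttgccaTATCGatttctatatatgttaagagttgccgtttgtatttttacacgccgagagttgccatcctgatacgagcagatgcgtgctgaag
Mpv17, chr4:1029403-1029603: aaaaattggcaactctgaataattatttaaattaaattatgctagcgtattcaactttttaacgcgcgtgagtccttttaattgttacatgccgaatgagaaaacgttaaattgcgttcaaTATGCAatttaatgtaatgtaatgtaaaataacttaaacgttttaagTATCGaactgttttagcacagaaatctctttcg
mGluR, chr4:941477-941677: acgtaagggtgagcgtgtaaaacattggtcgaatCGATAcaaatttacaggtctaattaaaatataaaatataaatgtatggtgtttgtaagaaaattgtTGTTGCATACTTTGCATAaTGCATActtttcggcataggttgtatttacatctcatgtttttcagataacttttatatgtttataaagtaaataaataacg
PlexB to ci, chr4:47479-47679: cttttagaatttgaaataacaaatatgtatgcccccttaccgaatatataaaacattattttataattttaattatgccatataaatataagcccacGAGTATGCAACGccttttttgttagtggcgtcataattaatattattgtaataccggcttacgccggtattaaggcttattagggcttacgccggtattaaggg
upstream of zfh2, chr4:497802-498002: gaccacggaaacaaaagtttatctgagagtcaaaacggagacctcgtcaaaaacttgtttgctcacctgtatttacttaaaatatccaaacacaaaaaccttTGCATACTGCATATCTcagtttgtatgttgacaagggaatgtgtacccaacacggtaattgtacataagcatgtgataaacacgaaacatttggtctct
PMCA, chr4:358658-358843: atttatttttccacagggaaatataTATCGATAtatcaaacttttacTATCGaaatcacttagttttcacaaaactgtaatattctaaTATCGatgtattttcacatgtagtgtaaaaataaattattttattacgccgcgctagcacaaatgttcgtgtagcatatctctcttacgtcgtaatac

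The first question was how many of the chromosome 4 genes had a mod(mdg4) summit at a start site. A promoter summit, one within 500 bp of any annotated start, was present at 36 of the 77 chromosome 4 genes (46.8%, exact 95% binomial interval 35.3 to 58.5%), against 2577 of 13865 genes of the large arms (18.6%). Over all arms, 18.7% of genes had one. Among the 6294 strongest peaks of replicate 3, 30 chromosome 4 genes (39.0%) had a promoter summit, against 19.5% of large-arm genes. In replicate 4 there were 38 (49.4%), against 21.2% of large-arm genes. The mean over the replicates was 44.2% ± 7.35 on chromosome 4 and 20.4% ± 1.21 on the large arms (SD, n = 2). The single large arms ranged from 17.4% (3R) to 21.1% (3L). No test was made of this difference, since there is 1 group and genes are not replicates of it. Intervals cover the number of genes only and not the spread between animals.

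A summit inside the gene, from its first to its last annotated base, was present in 33 of the chromosome 4 genes (42.9%, 31.6 to 54.6%), against 12.97% of large-arm genes and 13.1% over all arms. In single replicates 37.7% (replicate 3) and 44.2% (replicate 4) of chromosome 4 genes held one, against 13.2% and 13.5% of large-arm genes. Of the 77 genes, 29 had both kinds of summit, 7 had a promoter summit only, 4 had a summit inside only and 37 had neither. Each summit lay near few genes, as 35 of the 36 genes with a promoter summit had the start that was nearest to it. The exception was CG11076, which shared a summit with ATPsynbeta, the gene of a mitochondrial ATP synthase subunit.

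These shares depend on peak strength. Among the 3147 strongest peaks, the stronger part of the thresholded list, 9 chromosome 4 genes (11.7%) had a promoter summit, against 11.8% of large-arm genes, so the difference ended there. None of the 77 genes had a promoter peak among the 500 strongest pooled peaks, against 2.03% of large-arm genes. At 4000 pooled peaks the shares were 27.3% on chromosome 4 and 14.1% on the large arms, and at 12588, double the length of the thresholded list, 67.5% and 25.7%. Chromosome 4 was below the large arms at 2000 peaks in replicate 3 (5.19% against 8.30%) and in replicate 4 (6.49% against 8.48%), and above them at 6294.

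**Figure D1:**
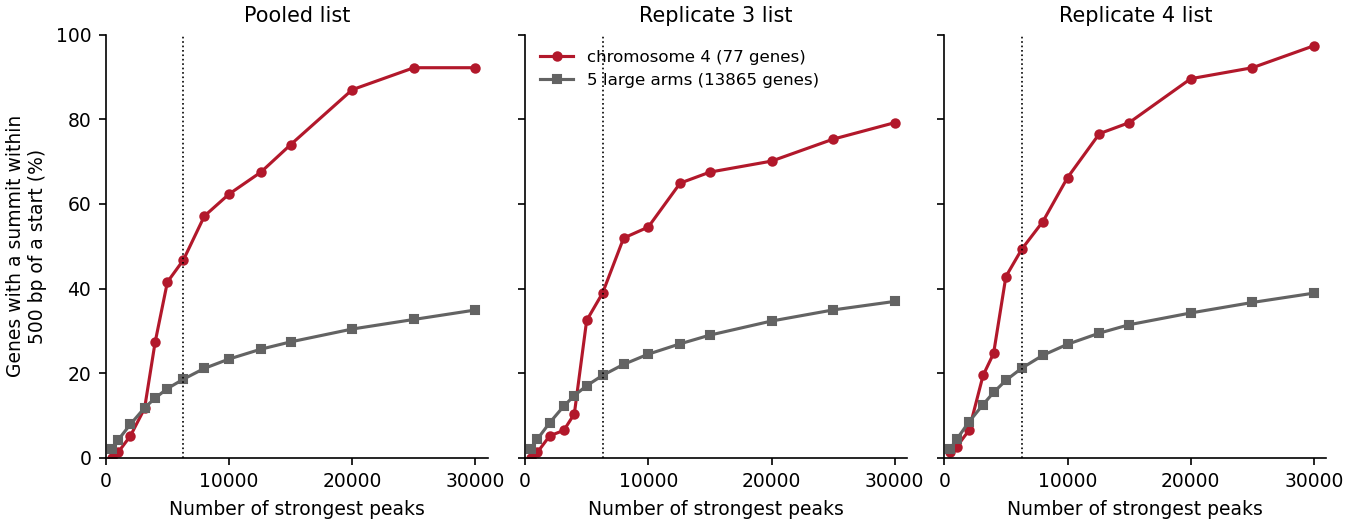
Share of genes (%) with a summit within 500 bp of a start, plotted against the number of strongest peaks taken from the pooled list and from each replicate list, for the 77 chromosome 4 genes (red circles) and the 13865 genes of the 5 large arms (grey squares). The dotted line marks 6294 peaks, where the shares are 46.8% and 18.6% in the pooled list, and in all 3 panels the red line starts below the grey one and crosses it before the dotted line.

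The same order was seen across peaks. Chromosome 4 makes up 1.01% of the length of the arms. When the arm peaks of the pooled list were divided by signal into 5 equal groups, chromosome 4 held 1.07% of the strongest group (0.823 to 1.36%), and 2.35%, 3.40%, 3.09% and 2.65% of the next 4. In replicate 3 the strongest and the middle group held 0.951% and 3.07%, and in replicate 4 they held 1.22% and 3.20%. In the whole pooled list there were 559 peaks per Mb on chromosome 4, against 220 per Mb on the large arms. In the thresholded list the densities were 49.7 per Mb on chromosome 4 and 46.8 per Mb on the large arms. In replicate 3 alone the order was reversed, with 44.5 per Mb against 46.9. Chromosome 4 has more bases per gene, and the thresholded list gave 87.0 summits per 100 of the chromosome 4 genes, against 44.8 per 100 genes of the large arms. This counts all 67 summits over the 77 genes, and with the 3 left-out genes included the value was 83.75.

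**Figure D2:**
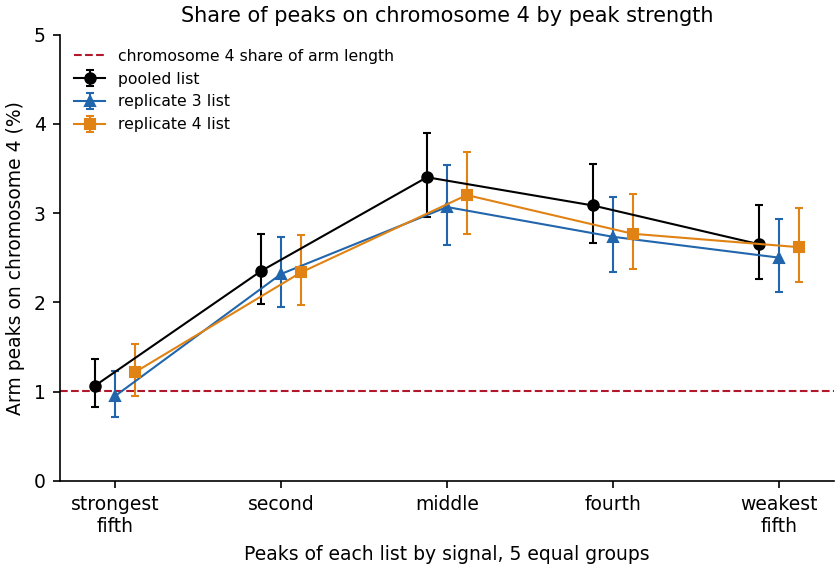
Share of arm peaks (%) that lie on chromosome 4, for each list divided by signal into 5 equal groups from strongest to weakest, with exact 95% binomial intervals. The dashed line is the share of chromosome 4 in the length of the arms, 1.01%, and in each list the strongest group lies at that line and the other 4 lie above it.

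The signals of the chromosome 4 summits themselves were lower. Their median in the thresholded list was 162, which stood at the 38.7th percentile of the large-arm summits, whose median was 186. In the replicates the chromosome 4 median stood at the 29.8th percentile (replicate 3) and the 33.9th (replicate 4). The strongest chromosome 4 summit had a signal of 556 and place 398, while the highest signals on the large arms were between 1830 (3R) and 2429 (2R). On chromosome 4 the medians were 162 for promoter summits and 167 for all others, and on the large arms they were 200 and 176.

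Genes of chromosome 4 are longer and have more start sites than those of the large arms, and both bear on how often a summit lies near a start or inside the gene. Their median length was 10.4 kb, against 2.16 kb on the large arms, and 48.1% had 2 or more starts, against 26.4%. Within classes of length, a promoter summit was present at 43.8% of 16 chromosome 4 genes under 5 kb (19.8 to 70.1%), against 14.0% of such large-arm genes. Between 5 and 20 kb the shares were 45.8% of 48 genes (31.4 to 60.8%), against 30.2%, and over 20 kb they were 53.8% of 13 genes (25.1 to 80.8%), against 38.1%. Of the 40 chromosome 4 genes with 1 start, 37.5% had a promoter summit, against 12.9% on the large arms. Of the 37 with more starts, 56.8% did, against 34.5%. The chromosome 4 value was the higher in each class and in both replicates. The large-arm value lies within the interval of the class over 20 kb and below the interval in the other 4 classes. With the outermost start of each gene as its only start, the share was 31.2% on chromosome 4 and 16.4% on the large arms.

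Summits inside genes differed in the longest class. Of the 13 chromosome 4 genes over 20 kb, 46.2% held a summit (19.2 to 74.9%), against 53.0% on the large arms. Under 5 kb the shares were 25% and 5.07%, and between 5 and 20 kb 47.9% and 30.5%.

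**Figure D3:**
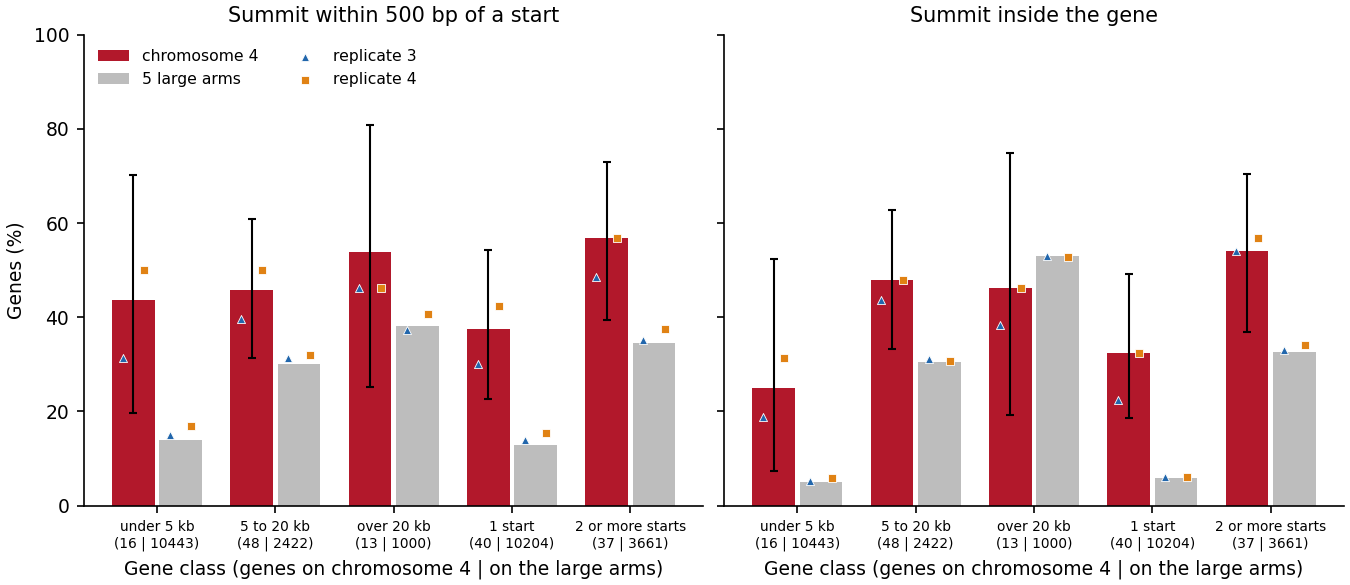
Share of genes (%) with a summit within 500 bp of a start (left) and inside the gene (right) by class of gene length and of number of start sites, for chromosome 4 (red bars, with exact 95% binomial intervals) and the 5 large arms (grey bars), with triangles for replicate 3 and squares for replicate 4. The number of genes in each class is given under the bars, and the red bar is the taller in every class except the genes over 20 kb in the right panel, where it is 46.2% against 53.0%.

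The strongest promoter summit of chromosome 4 was at Actbeta, the gene of an activin-type ligand of the TGF-beta family. It lay 64 bp upstream of the start, at chr4:1084860, with a signal of 497 in the thresholded list. Its signal was 262 in replicate 3 (place 671) and 236 in replicate 4 (place 399). Its full window of 201 bases holds a su(Hw) match, in the bases that are not printed, as well as the DRE match in capitals above. The next was at pan, which encodes the TCF transcription factor of Wnt signalling. Its summit lay 17 bp from a start, in a 5' UTR, with a signal of 313 in the thresholded list, 159 in replicate 3 (place 1806) and 164 in replicate 4 (place 883). A second summit, 569 bp upstream of the nearest pan start and so just outside the promoter limit, had a signal of 275, with places 3085 and 641 in replicates 3 and 4. At ey, the Pax6 gene eyeless that directs eye development, the summit lay 9 bp upstream of a start with a signal of 285 (places 1868 and 1582 in replicates 3 and 4). The full window of the ey summit also holds a match to the su(Hw) core, in bases that are not printed. These 3 genes were called in both replicates.

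Among the 17 genes of the transcription list, 9 had a promoter summit, and 7 had one in replicate 3 and 8 in replicate 4. This is near the 46.8% of all 77 genes, and no list of genes below is set apart from them, since each is small and none was tested. Beside pan and ey they were ci, the Hedgehog effector of the Gli family, lgs, the Wnt coactivator legless, zfh2 and Sox102F, the Mediator subunit gene MED26, the cofactor gene Hcf and Mitf, which regulates lysosomal genes. Hcf had a signal of 186 and places 3721 and 1776 in replicates 3 and 4. MED26 had 181 and places 4299 and 3070, and ci had 148 and places 5659 and 4488. These 3 stood higher in replicate 4 and passed in both. At lgs the replicates were far apart, with a signal of 168, place 9017 in replicate 3 and place 1905 in replicate 4. Mitf had the strongest of the remaining promoter summits, with 228, and lay at 499 bp, at the edge of the limit, so that neither replicate counted it, with places 2842 and 2634 and summits beyond the limit. Of the 8 transcription genes with no promoter summit, dati, fd102C and fuss had pooled-list promoter peaks at places 22849, 17339 and 17384, where the list has 29999. Their start sites thus had peaks only among the weaker ones of the list. The Polycomb recruiter gene pho had one at place 12404 and toy, the second Pax6 gene, at place 10501.

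Among ligands, receptors and adaptors, 5 of 9 genes had a promoter summit, and 4 in each replicate, beside 46.8% of all 77 genes. After Actbeta they were the ephrin receptor gene Eph, the semaphorin receptor genes PlexA and PlexB and the TGF-beta ligand gene myo. Eph had a signal of 170 and places 4161 and 4306 in replicates 3 and 4, PlexA had 147 and places 5673 and 4873, and PlexB had 153 and places 7707 and 4058. Eph and PlexA had similar places in the replicates, and PlexB stood higher in replicate 4. PlexB was counted in replicate 3 through another peak within 500 bp of its start, not the one at place 7707. The promoter summit of myo, at 485 bp from its start, was the weakest of all 36 with 116, and its places of 7480 and 6780 were outside the 6294 strongest of both replicates. Ephrin, the gene of the Eph ligand, had its nearest summit 12151 bp from its start, and its pooled promoter peak stood at place 14045. The adaptor gene Crk and the glutamate receptor gene Ekar had pooled promoter peaks at places 7175 and 14834. The metabotropic glutamate receptor gene mGluR had 2 summits inside and none at its start.

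Of 8 synaptic genes, 1 had a promoter summit, CaMKII, a calcium-dependent kinase, with a signal of 137 and places 7625 and 4229 in replicates 3 and 4. All 77 genes gave 46.8%, and 8 genes are too few to set the synaptic ones apart. The neurotransmitter transporter gene Gat and the secretion gene Cadps had pooled promoter peaks at places 24830 and 14779, and the vesicle gene Syt7 had none. Of 4 cytoskeletal genes, also too few to set apart, 1 was called. Ank, which encodes ankyrin, had a promoter summit of 203 with places 3400 and 2764. The muscle gene bt, which encodes projectin and is the longest of the 77 with 52075 bp, had no promoter peak in the pooled list and no summit within 26720 bp. Zyx, the zyxin gene, and the kinesin gene Kif3C had pooled promoter peaks at places 9793 and 18081.

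Of 5 genes of RNA and protein turnover, 4 had a promoter summit, with 4 in replicate 3 and all 5 in replicate 4. Set beside the 46.8% of all 77 genes and the 18.7% over all arms, 5 genes are too few to set them apart. The gene gw, whose product silences microRNA targets, had a signal of 227 and places 2145 and 3499 in replicates 3 and 4. Gyf had 188 and places 4809 and 2805, Pur-alpha had 152 and places 4703 and 6100, and Rad23, a gene of ubiquitin-dependent turnover, had 123 and places 10428 and 3798. Of these 4, gw and Pur-alpha stood higher in replicate 3 and Gyf and Rad23 in replicate 4. The remaining gene, 4E-T, encodes a partner of the translation factor eIF4E. It had no thresholded promoter summit but a promoter peak among the 6294 strongest of both replicates, and its pooled peak missed the length of the list at place 6352. Among 6 kinases and small G proteins, Asator, a kinase gene related to tau-tubulin kinases, and CaMKII had a promoter summit, both in replicate 4 and neither in replicate 3, beside 46.8% of all 77 genes. Asator had a signal of 133 with places 7485 and 4637. Dyrk3 and Arf4 had pooled promoter peaks at places 6343 and 7615 and Arl4 had none.

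Of 9 genes of metabolism and transport, PMCA, the plasma membrane calcium pump, and ATPsynbeta had promoter summits, beside 46.8% of all 77 genes. In replicate 3 the list had 3 and in replicate 4 it had 5, so this count depends on the replicate. PMCA had 196 and places 4187 and 2477 in replicates 3 and 4, and ATPsynbeta had 182 and places 4661 and 2694. The DNA repair gene Tdg had none in the thresholded list and 1 in each replicate. The lipoprotein gene apolpp and the lipid kinase gene PIP4K had pooled promoter peaks at places 9793 and 7006, the first shared with Zyx. PIP4K had a promoter summit in replicate 4 and none in replicate 3. JYalpha, a sodium pump gene, had no promoter peak in the pooled list. The 22 genes in no list included 13 with a promoter summit, beside 46.8% of all 77 genes. These were anne, CG31997, CG33978, CG31998, CG31999, CG1674, the RING finger gene Rnf11, the kinase gene CaMKI, mav, which encodes a TGF-beta ligand, CG46466, Mpv17, CG11076 and CG32017. Mpv17, the gene of a mitochondrial inner membrane protein, had the highest signal of them, 252, with places 1901 and 2199. The other 12 lay between 133 and 182. At anne the replicates were far apart, with place 10235 in replicate 3 and 2495 in replicate 4.

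Over all 36 genes the promoter signal ranged from 116 to 497 with a median of 162. Of these genes, 26 also had a promoter summit among the 6294 strongest peaks of both replicates, 1 in replicate 3 only, 7 in replicate 4 only and 2 (Mitf and myo) in neither. Of the 41 without a promoter summit, 35 had a promoter peak somewhere in the pooled list. The 6 without any were JYalpha, CG32006, Arl4, Syt7, Zip102B and bt. In the whole pooled list 71 of the 77 genes (92.2%) thus had a promoter peak, against 34.9% of large-arm genes. In the whole replicate lists the shares were 79.2% against 37.0% (replicate 3) and 97.4% against 38.9% (replicate 4). The pooled list, which includes background, was also denser on chromosome 4, with 559 peaks per Mb against 220 on the large arms. The part of this density in these shares was not tested.

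**Figure D4:**
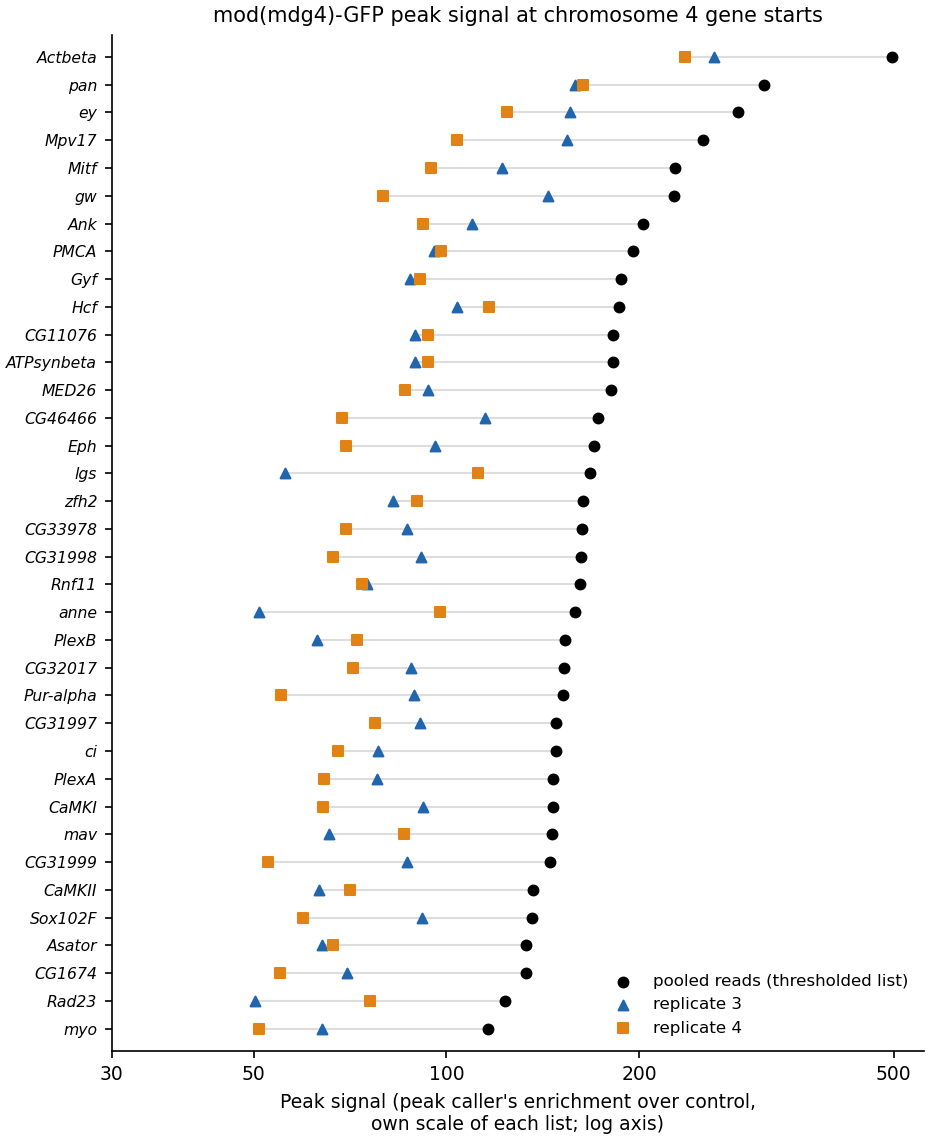
Peak signal (log axis, each list on its own scale) of the strongest promoter summit of each of the 36 chromosome 4 genes that have one, in the thresholded list (black circles) and of the overlapping peak with the nearest summit in replicate 3 (blue triangles) and replicate 4 (orange squares). Actbeta stands apart with 497, pan, ey and Mpv17 follow between 252 and 313, and the blue triangles of lgs, anne and Rad23 lie at 50.3 to 56.0, left of their orange squares.

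The summits were close to gene starts. On chromosome 4, 37 of the 67 (55.2%, 42.6 to 67.4%) lay within 500 bp of a start, against 41.9% on the large arms, where the sequence within that distance makes up 8.66% of chromosome 4 and 11.5% of the large arms. The replicates gave 50% (replicate 3) and 57.7% (replicate 4), against 43.2% and 45.5%. The median distance to a start was 457 bp on chromosome 4 and 808 bp on the large arms. Among the 3147 strongest peaks the order was reversed, with 45.0% on chromosome 4 and 46.6% on the large arms. Among the 12588 strongest pooled peaks the shares were nearly equal, with 33.6% and 33.4%. The higher share on chromosome 4 was thus seen at the length of the thresholded list and not at these other lengths. By annotation, 14 summits (20.9%) lay in a 5' UTR, against 7.15% on the large arms, 24 (35.8%) in an intron, against 48.0%, 28 (41.8%) between genes, against 40.7%, and none in a coding exon, where the large arms had 36 (0.580%). A count of 0 of 67 allows a share of up to 4.48%, taken as 3 counts.

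The 30 summits beyond 500 bp include most of the strongest. Of the 10 strongest on chromosome 4, 6 were beyond 500 bp. The interval of 41.4 kb between dati, a zinc-finger gene, and lgs holds no other protein-coding gene and held 6 summits, the most of any interval between neighbouring genes. One of them was the strongest of the chromosome with 556, and had 303 and place 499 in replicate 3 and 251 and place 354 in replicate 4. A second one, at chr4:415648, had 510, with places 565 and 389 in replicates 3 and 4. The other 4 had signals between 128 and 181, and the one at chr4:407233 lay under 300 bp from the strongest, with an overlapping peak. All 4 stood higher in replicate 3 than in replicate 4, from 2785 against 7923 (chr4:404540) to 3567 against 3838 (chr4:424819).

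Asator and zfh2 have divergent starts 12.8 kb apart with 3 summits between them. The strongest, at chr4:490327 and 1333 bp upstream of Asator, had 507 and places 678 and 350 in replicates 3 and 4. Upstream of fuss, a gene of the Ski family, a summit at chr4:979964 had 494 and places 567 and 484, although the fuss promoter peak itself stood at place 17384 of the pooled list. Inside Cals, the calsyntenin gene, a summit at chr4:1113418 in a 3' UTR had 523 and places 474 and 334. The 6 strongest summits of the chromosome, 1 at a promoter (Actbeta) and 5 elsewhere, thus stood high in both replicates, and the next summit, at pan, had 313.

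Within genes, 5 of the 77 held 2 summits each and none held more. Those of Rad23, Asator, Pur-alpha and myo had signals between 116 and 160, and the pair of myo was under 300 bp apart. In mGluR the pair, under 300 bp apart, had 196 and 140. Both were placed higher in replicate 3, at 1965 and 3178, than in replicate 4, at 7344 and 12104. A summit inside and none at the start was also found, for example, in Tdg and in Cals.

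Places of the 67 summits in the replicate lists showed a difference between replicates. All 67 had an overlapping peak in both full lists, against 98.8% on the large arms. Among the 6294 strongest of each replicate, 42 (62.7%, 50.01 to 74.2%) were matched in both, against 70.9% on the large arms, with 8 in replicate 3 only, 16 in replicate 4 only and 1 in neither. A match is an overlap with any of these peaks, which need not be the one whose place is given. By the place given, 49 of the 67 stood among them in replicate 3 and 53 in replicate 4. The median place was 4703 in replicate 3 and 3961 in replicate 4, whereas the large-arm medians were 3300.5 and 3428.5. On chromosome 4, 44 of 67 summits (65.7%, 53.1 to 76.8%) stood higher in replicate 4, against 46.8% on the large arms. At promoters 27 of 37 did so (73.0%, 55.9 to 86.2%), against 48.4%, and beyond 500 bp 17 of 30 (56.7%, 37.4 to 74.5%), against 45.7%. Promoter summits were matched in both replicates in 27 of 37 cases (73.0%), against 75.4% on the large arms, and the others in 15 of 30 (50%), against 67.6%. In 10 cases the places were over 3-fold apart. With 1 library a replicate, a difference between the libraries and one between the animals cannot be told apart.

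**Figure D5:**
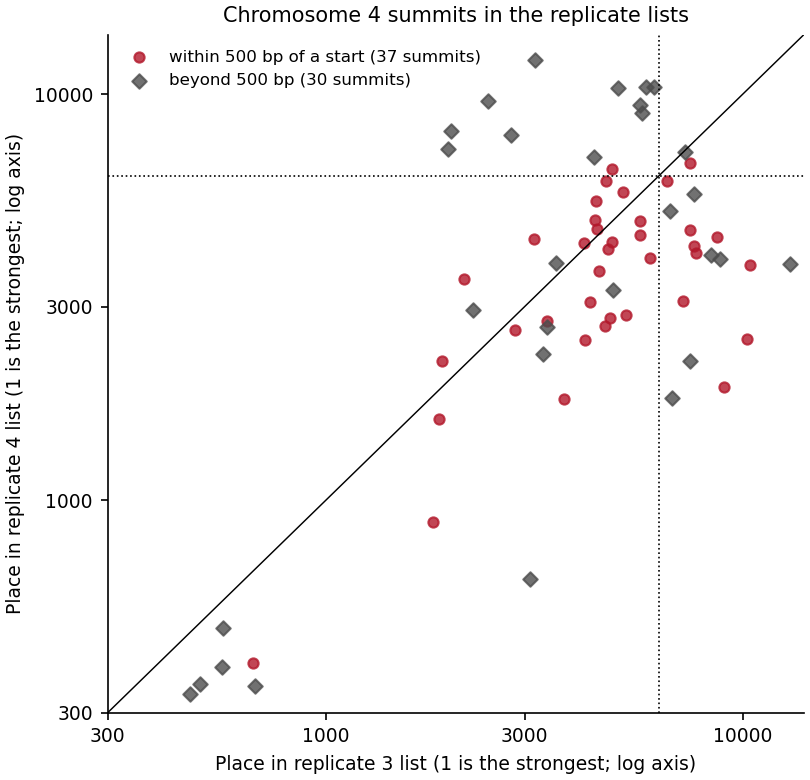
Place of each of the 67 chromosome 4 summits in the replicate 3 list (horizontal) and the replicate 4 list (vertical), on log axes with 1 the strongest, for 37 summits within 500 bp of a start (red circles) and 30 beyond (dark diamonds). The diagonal marks equal places and the dotted lines place 6294. A group of 6 summits stands near the top of both lists, most circles lie below the diagonal (higher in replicate 4), and the points far above it are diamonds.

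Motif matches were counted in windows reaching 100 bp to each side of the summits. The su(Hw) motif was found in 4 of 67 chromosome 4 windows (5.97%, 1.65 to 14.6%), against 3.03% on the large arms. Along the whole sequence, 0.317% of chromosome 4 windows of the same length and 0.381% of large-arm windows hold it. Beside Actbeta, these windows were those in mGluR (chr4:941577), between PlexB and ci (chr4:47579) and 3908 bp upstream of zfh2 (chr4:497902), shown above. The 3 were placed higher in replicate 3 than in replicate 4, at 1965 against 7344, at 1993 against 8097 and at 6133 against 10418, so that 4 of 60 replicate 3 windows and 1 of 78 replicate 4 windows held the motif. The core TGCATA alone was in 34.3% of windows (23.2 to 46.9%), against 16.4%, and in 12.1% and 12.5% of the whole sequence. The full motif thus rests on few windows and the core on 23 of 67. In replicates 3 and 4 the core was in 26.7% and 24.4% of chromosome 4 windows, against 16.9% and 16.0%. Windows at the outermost start of the genes held the core in 12.99% of cases on chromosome 4 and 7.65% on the large arms. The full motif was in 1 of 77 such windows on chromosome 4 (1.30%), against 0.260%. The core was thus also more frequent at the gene starts of chromosome 4, and the part of this in the summit shares was not tested.

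The DRE motif was in 5 windows (7.46%, 2.47 to 16.6%), against 3.06% on the large arms. The 5 were the promoter windows of Actbeta, PMCA, MED26 and PlexA and the summit 792 bp upstream of myo. Along the whole sequence, 1.98% of chromosome 4 windows and 0.550% of large-arm windows hold the motif. Windows at the outermost start of the genes held it in 7.79% of cases on chromosome 4 and 7.84% on the large arms. The share under chromosome 4 summits was thus close to that at gene starts of either part of the genome. The BEAF-32 element was in 40.3% of windows (28.5 to 53.0%), against 28.6%, and in 41.6% and 39.4% of the start windows. Along the whole sequence it was in 24.9% and 21.3%. In replicates 3 and 4 it was in 31.7% and 33.3% of chromosome 4 windows, against 28.3% and 31.3% on the large arms, so the difference was smaller there. A CTCF match (AGGNGGCGC) was in 1 window, at chr4:486763 in Asator (1.49%), against 1.55%. The promoter element Motif 1 was in 1 window, at the start of Rad23 (1.49%), against 1.29%. The GAGA repeat GAGAGAG was in none of 67 windows, which allows a share of up to 4.48%, against 7.46% on the large arms, and in 1.77% and 2.45% of the whole sequence. In replicate 3 it was in 1 of 60 windows, against 6.90%, and in replicate 4 in 0 of 78, against 8.41%. Of the start windows, 0 of 77 on chromosome 4 held it, against 3.71% on the large arms. The windows had a mean GC content of 34.1% on chromosome 4 and 37.4% on the large arms, where the sequences themselves have 35.2% and 42.2%. The part of base composition in these shares was not tested.

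Transposon copies cover 25.1% of chromosome 4 and 5.74% of the large arms. Of the 67 summits, 5 lay in one (7.46%), against 19 of 6206 (0.306%). The pair at chr4:960411 and chr4:960616, between 4E-T and fuss, lay in 1 copy of 1360, a DNA transposon, with signals of 206 and 120. The other 3 were in copies of INE-1, 1 of them downstream of anne, with signals of 117 to 123. The summits in transposons were thus among the weaker ones apart from that at chr4:960411. Over equal groups of the pooled list from strong to weak, the share of chromosome 4 summits in transposons was 6.25%, 7.80%, 10.8%, 15.7% and 17.6%, and on the large arms 0.303%, 0.581%, 0.984%, 1.12% and 1.35%. How reads that match several copies were placed is not stated in the labels or file listings, and its part in these shares was not tested.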

How the data were processed

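Chromatin of whole mod(mdg4)-GFP larvae was precipitated with an anti-GFP antibody in 2 biological replicates (1 group). The authors deposited peak lists on dm6 for each replicate, for the pooled reads and, over both, for peaks past the optimal IDR threshold, per the text listings deposited with the files. The signal of each peak, as deposited by the authors, is the peak caller's enrichment over a control library, on a scale of its own list. Neither the labels nor the listings name the peak caller, the IDR threshold or the treatment of reads with several matches, which are thus not given in the sources used here. As counts of reads are absent from the lists, the depth is unknown. The lists on dm3 and the control library were not used here.

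Summits were placed at the peak start plus the deposited summit offset and counted from 1. Genes, start sites, UTRs and transposons came from Ensembl release 115, and sequence from RefSeq Release 6. All annotated starts of a gene counted. Coding exons took precedence over 5' UTRs, 3' UTRs and introns. The replicate peak of a summit, which gives its place, is the overlapping one with the nearest summit. In contrast, "matched" means an overlap of at least 1 bp with any peak of the part of the list used. Shares have exact 95% binomial intervals (Clopper-Pearson), which reflect the numbers of peaks or genes alone, and a count of 0 is given with the limit of 3 counts. No test was made, because there is 1 group and genes are not replicates. The code was tested on simulated peaks. Motifs were searched on both strands. The tools were pandas 2.3.3 and SciPy 1.17.1 on NumPy 2.4.6 under Python 3.11.15, and figures were drawn in matplotlib 3.10.9.

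The genes, the 7 role lists and the 7 motifs were chosen with earlier results of these data known. Of 56 role symbols, 55 are chromosome 4 genes of the annotation, 2 of them through a RefSeq synonym (Arf4 and Tdg). Genes are named where they have a promoter summit, are among those with most summits inside, hold or are nearest to the 10 strongest summits or a printed sequence, or are among up to 3 members without a summit a list in alphabetical order. Other genes, such as pho, toy, Syt7 and the further genes without a pooled promoter peak, were named after their values were seen. Alternatives varied the replicates, the length of the list, the promoter limit, the starts, the gene set and the summit position. A gene and a sequence are not reported here.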

Additional observations from a re-analysis of the deposited data

How the results depend on the processing

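With single replicates, the share of chromosome 4 genes with a promoter summit was 39.0 to 49.4%, that with a summit inside 37.7 to 44.2%, the promoter share of summits 50 to 57.7%, summits per 100 genes 77.9 to 101.3, the percentile of the median signal 29.8 to 33.9 and summits per Mb 44.5 to 57.9, the lower one (replicate 3) below the 46.9 of the large arms. Among the 3147 strongest thresholded peaks, 3 values fell below those of the large arms: genes with a promoter summit (11.7% against 11.8%), the promoter share of summits (45.0% against 46.6%) and summits per Mb (14.8 against 23.4). There, 10.4% of genes held a summit, with 26.0 summits per 100 genes and a percentile of 34.9. With double the number of pooled peaks, the promoter share of summits was 33.6%, close to the 33.4% of the large arms. The other values there were 67.5% of genes at the promoter, 75.3% inside, 165 per Mb, 289.6 per 100 genes and a percentile of 28.4. For peaks strong in both replicates, 35.1% of genes had a promoter summit, 27.3% held one inside and 64.3% of summits were at a promoter. These peaks gave 31.2 per Mb (below the 33.2 of the large arms), 54.5 per 100 genes and a percentile of 28.4. With a promoter limit of 250 bp, 35.1% of genes and 38.8% of summits were at a promoter, against 14.8% and 31.8% on the large arms. With 1000 bp 62.7% of summits were, against 53.9%. With outermost starts the values were 31.2% of genes and 35.8% of summits, against 16.4% and 31.5%. In the whole replicate lists 100% of summits were matched in both, against 98.8%, the reverse of the order among the strongest. The causes of these shifts were not tested. The peak midpoint, the 3 left-out genes, the length between the outer genes and, added after the data were seen, counting summits under 300 bp apart once moved the values by less than the spread between replicates. Most chromosome 4 peaks had their summit at or next to the midpoint, so the midpoint alternative could change little. A reciprocal overlap of 50% left 53.7% of summits matched in both, within the interval of the 62.7%. No paired analysis was possible because there is 1 group. The unknown depth limits what a missing peak means.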

Other observations

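Transposon families under the whole pooled list: over all 753 pooled-list peaks of chromosome 4, strong and weak, 60 summits (7.97%) lay in INE-1 copies, which cover 7.31% of the sequence. In 1360 copies, which cover 3.84%, there were 15 (1.99%). HeT-A, a telomeric element, covers 3.32% and held 3 summits (0.398%), and TART-A, another one, covers 1.96% and held none. The placement of reads that match several copies is not stated, and its part in these counts was not tested.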
